A study of Mus musculus with 3 samples.

Results

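Cyclins, the cyclin-dependent kinases (CDKs) that they activate, the E2F transcription factors and the retinoblastoma (Rb) family were examined as 1 set of 43 genes, out of the 55573 genes listed in the expression table. A gene belonged to the set when its symbol in the table matched 1 of 43 fixed symbols, a rule that uses no measured value. The symbols themselves were chosen with earlier results of these data known. Each symbol matched exactly 1 gene, and all 43 were annotated as protein coding. They lay on 17 chromosomes, so the set shares function rather than position.

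The values came from UMI-RNAseq of NIH3T3, a mouse fibroblast line grown in DMEM with fetal bovine serum, penicillin and streptomycin. No experimental treatment, added allele or test agent is given for it. The 3 libraries are replicates 1, 2 and 3 of 1 condition, so no group could be compared with another. The sources used here do not state whether they came from separate cultures, so a spread between them may be technical. The extraction text of the labels mentions retina, whereas the labels give NIH3T3 as the cell line. All 10 fibroblast markers examined had a mean of at least 1 FPKM, with a summed level of 9812 to 9935 FPKM per library. None of 10 retina markers did, and their sum was 0.562 to 1.31 FPKM, with Nrl, a rod photoreceptor factor, listed at 0. None of 4 lymphoid and none of 4 epithelial markers reached 1 FPKM either, with summed levels of up to 0.288 and 0.559 FPKM and with Cd3e, Epcam and Krt18 listed at 0.

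FPKM divides the fragments counted for a gene by its length in kilobases and by the library total in units of 1000000, so it sets levels of different genes on a scale per length. In UMI-RNAseq, random tags (unique molecular identifiers) mark each molecule before amplification, which lets PCR copies be removed before counting. The counted totals, recovered from the deposited values, ranged from 13959723 fragments (library 2) to 14423209 (library 1). The fragments behind each member were recovered in the same way, and members above 0 rested on 133 to 5797 fragments in a library. In a bulk culture, fewer cells in a phase and less RNA per cell cannot be told apart, and the phase names used below are those in which each protein is known to act.

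In the mammalian cell cycle, D cyclins bind Cdk4 and Cdk6 during G1 and phosphorylate Rb and its relatives, which releases E2F factors bound to DP partners. The freed E2Fs switch on genes for DNA replication, among them E cyclins, which activate Cdk2 for entry into S phase. A cyclins then act with Cdk2 and Cdk1 through S and G2, and B cyclins with Cdk1 at mitosis. Other members of the same families phosphorylate RNA polymerase II or activate other CDKs.

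Nearly the whole set was transcribed in these cells. A mean of at least 1 FPKM was reached by 41 of the 43 members (95.3%), beside 23.2% of all genes listed and 49.2% of the 21980 protein-coding genes. Since the list was chosen with earlier results of these data known, this share only describes it. A level of at least 10 FPKM was reached by 38 members, at least 50 FPKM by 15 and at least 100 FPKM by 5. The median member stood at 26.5 FPKM, beside a median of 21.9 FPKM over protein-coding genes of at least 1 FPKM, and 27 members were above the latter. Both remaining members, Ccna1 and E2f6, were listed at 0 in every library, as were 28.2% of protein-coding genes.

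**Figure D1:**
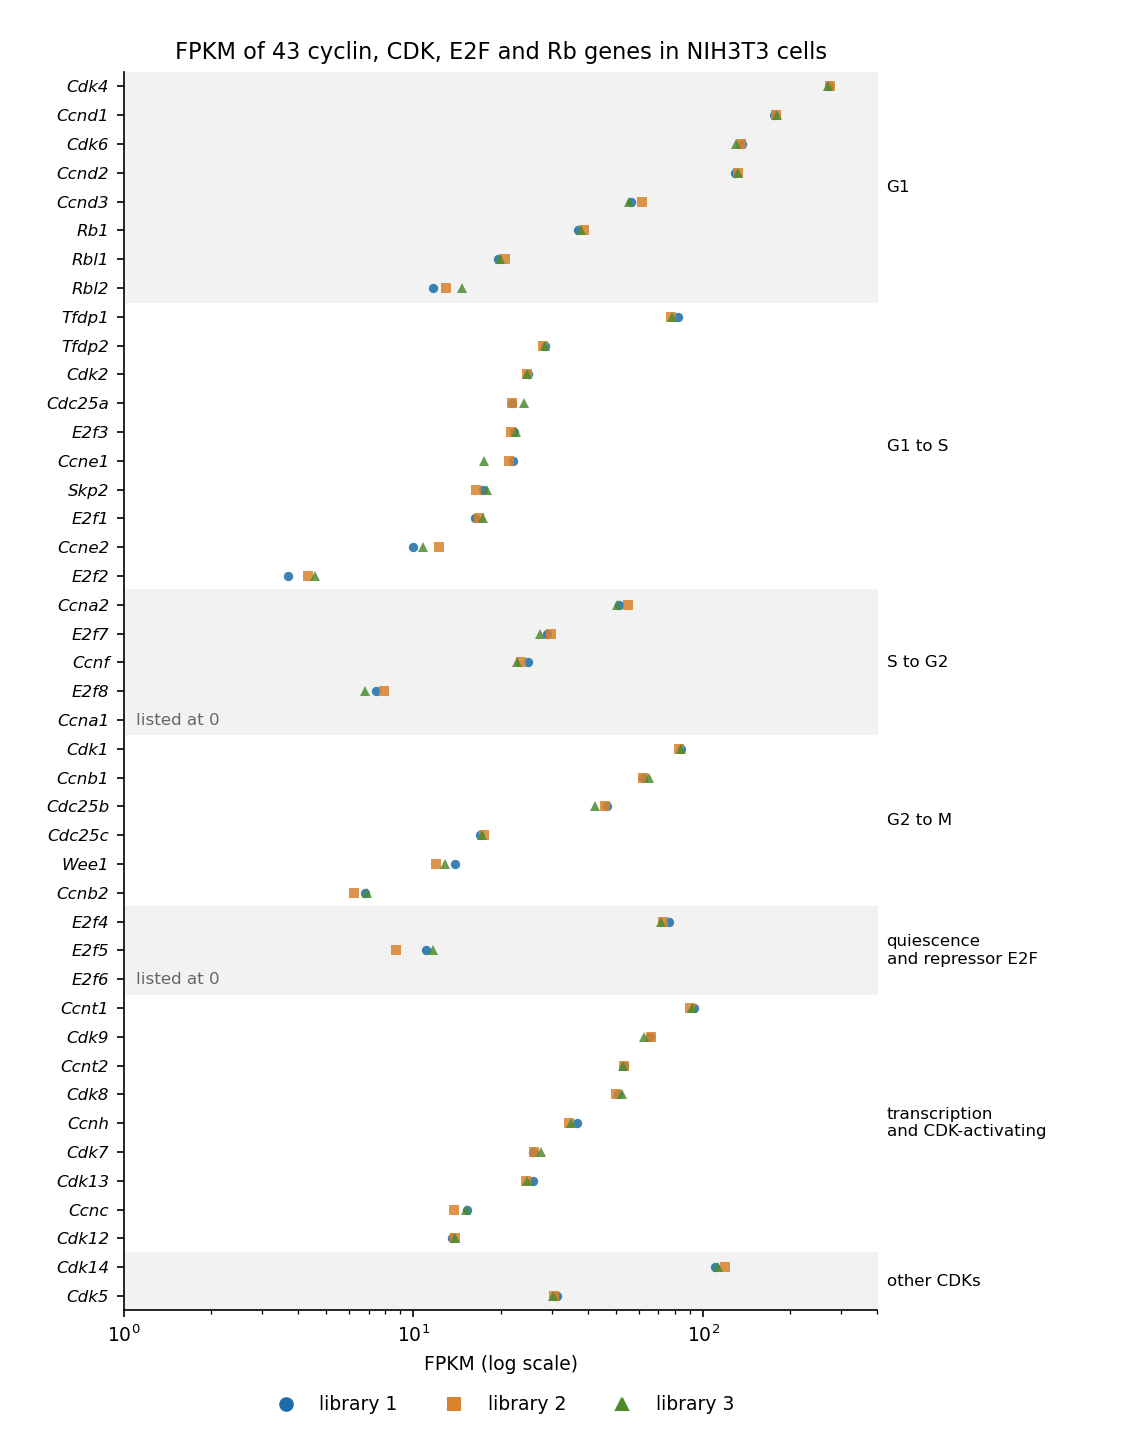
FPKM of each member in library 1 (circles), library 2 (squares) and library 3 (triangles) on a log axis, grouped by the phase or process in which the protein acts. Levels ran from 4.20 FPKM (E2f2) to 272.3 FPKM (Cdk4), and the points of a gene lie close together compared with that whole range. Ccna1 and E2f6 were listed at 0.

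The order of the members is shown in the plot of levels by phase. Among the 41 members above 0, 20 of the 40 neighbouring pairs in that order had ranges over the libraries that did not overlap, and the other 20 could not be separated. The separated neighbours were mostly at the top, where Cdk4, Ccnd1, Cdk6 and Ccnd2 headed the list. Only Cdk6 and Ccnd2 overlapped each other among these 4. From Cdk7 (26.5 FPKM) down to Rbl1 (20.1 FPKM), by contrast, 7 neighbouring pairs in a row overlapped.

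In deposited FPKM, the G1 members were the most abundant phase group, with a median of 94.6 FPKM over 8 genes. Their sum was 836 to 856 FPKM per library. Cdk4, the kinase partner of D cyclins (chr10:127063534-127067920, plus strand, GRCm38), was the highest member, with 271.2 FPKM in library 1, 275.1 in library 2 and 270.7 in library 3. It ranked 337th among the 12905 genes with a mean of at least 1 FPKM. Cdk6, its closest relative, measured 136.1, 135.4 and 129.7 FPKM, and library 3 was the lowest. Cdk4 was thus 2.04 ± 0.048 times as high as Cdk6 (SD, n = 3), and all 3 libraries showed that order.

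Ccnd1 (chr7:144929931-144939925, minus strand) led the D cyclins, with 175.4, 178.5 and 180.4 FPKM in libraries 1 to 3. Ccnd2 followed with 129.1, 132.4 and 132.4 FPKM, and Ccnd3 with 56.4, 61.7 and 55.3 FPKM. The ranges of these paralogs did not overlap, and the order Ccnd1, Ccnd2, Ccnd3 held in every library. Ccnd1 exceeded Ccnd2 by 1.36 ± 0.008 times and Ccnd3 by 3.09 ± 0.187 times, and Ccnd2 exceeded Ccnd3 by 2.28 ± 0.125 times (SD, n = 3). Of the summed D cyclin level of 367.2 ± 5.90 FPKM, Ccnd1 held 48.5%, Ccnd2 35.8% and Ccnd3 15.7%. Cdk4 stood at 1.53 ± 0.025 times its partner Ccnd1.

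A ratio of 2 genes in FPKM depends on the length assigned to each. The deposited values imply that the length used was the mean over all annotated isoforms of a gene, short ones included. For most members that mean was below the longest annotated isoform. The median ratio of longest to used length was 1.95 over the members and 1.85 over protein-coding genes of at least 1 FPKM. With the longest isoform in its place, Ccnd1 exceeded Ccnd2 by 2.79 times and Ccnd3 by 5.38 times, and Cdk4 exceeded Cdk6 by 4.15 times. Ccnd2 and Cdk6 each have a long annotated isoform, of 6330 and 11525 nt, against used lengths of 1639 and 2954 nt. The order within both families was the same under either length. Medians of the phase groups are in deposited FPKM and were not recomputed with the longest isoform, under which Ccnd2 and Cdk6 came to 34.0 and 34.3 FPKM.

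The 3 pocket proteins, which bind and silence E2Fs until phosphorylated, were lower than Cdk4 and Cdk6. Rb1 measured 36.9, 38.9 and 37.9 FPKM, Rbl1 (p107) 19.7, 20.7 and 19.9 FPKM, and Rbl2 (p130) 11.7, 13.0 and 14.7 FPKM. None of the 3 ranges overlapped, and Rbl2 differed most between libraries, lowest in library 1 and highest in library 3. Rb1 was 1.89 ± 0.017 times as high as Rbl1 and 2.91 ± 0.30 times as high as Rbl2, and Rbl1 was 1.54 ± 0.172 times as high as Rbl2 (SD, n = 3). Rb1 held 53.3% of the summed pocket protein level, Rbl1 28.3% and Rbl2 18.4%. The lead of Rb1 over Rbl1 turned with the longest isoform, to 0.887 times, since the length used for Rb1 was 1183 nt and its longest isoform is 4656 nt. The lead over Rbl2 shrank to 1.79 times under that length.

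Genes of the G1 to S step had lower deposited levels, with a median of 21.3 FPKM over 10 genes. The E cyclins were the lowest of the 4 cyclin classes. Ccne1 measured 22.1, 21.4 and 17.6 FPKM, and Ccne2 10.0, 12.2 and 10.8 FPKM. Library 3 held the lowest Ccne1 value and library 1 the lowest Ccne2 value, so the ratio between them varied from 1.62 to 2.22 around a mean of 1.86 ± 0.315 (SD, n = 3). Ccne1 held 69.0%, 63.6% and 61.9% of the E cyclin sum in libraries 1 to 3. Cdk2, their kinase, was steady at 24.8, 24.7 and 24.6 FPKM, on 779 to 807 fragments, and was 1.23 ± 0.154 times as high as Ccne1. That ratio was 1.95 with the longest isoform.

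Of the A cyclins, only Ccna2 had a value above 0. Ccna2, which acts in S and G2 in dividing cells, had 51.1, 55.2 and 50.6 FPKM. Ccna1 (chr3:55045469-55055501, minus strand), known mainly from the male germ line, was listed at 0 in all libraries. A level of 3 fragments for Ccna1 would have been 0.182, 0.188 and 0.183 FPKM. Whether the 0 of Ccna1 reflects its transcripts or the authors' annotation and counting was not tested. Annotated protein-coding neighbours of Ccna1 on both sides had signal, with 15.1 to 19.8 FPKM for Rfxap and 43.2 to 44.3 FPKM for Spg20, while the nearest on 1 side, Sertm1, was also listed at 0. Cdk2 was lower than Ccna2, at 0.473 ± 0.022 of its level.

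Among the B cyclins, which carry Cdk1 into mitosis, Ccnb1 was far above Ccnb2. Ccnb1 had 62.2, 61.9 and 64.9 FPKM on 1305 to 1403 fragments, and Ccnb2 6.79, 6.22 and 6.89 FPKM on 133 to 151 fragments. The ratio was 9.51 ± 0.405 (SD, n = 3), the largest in deposited FPKM among the paralog pairs with both genes above 0, and Ccnb1 held 90.5 ± 0.363% of the B cyclin sum. With the longest isoform the ratio was 5.77, since Ccnb2 has 1 annotated isoform and kept its length. That was below the ratios of E2f1 to E2f2 (7.38) and, narrowly, Tfdp1 to Tfdp2 (5.80). Ccnb1 shared 18.9% of its 75-nt sequence words with other genes, among them the pseudogene Ccnb1-ps, which was at 1.23 ± 0.292 FPKM. Cdk1 itself had 83.8, 82.6 and 83.8 FPKM, and the 3 libraries were nearly level. It exceeded Cdk2 by 3.38 ± 0.031 times (1.36 times with the longest isoform) and Ccnb1 by 1.32 ± 0.030 times. The latter order turned with the longest isoform, to 0.610 times.

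**Figure D2:**
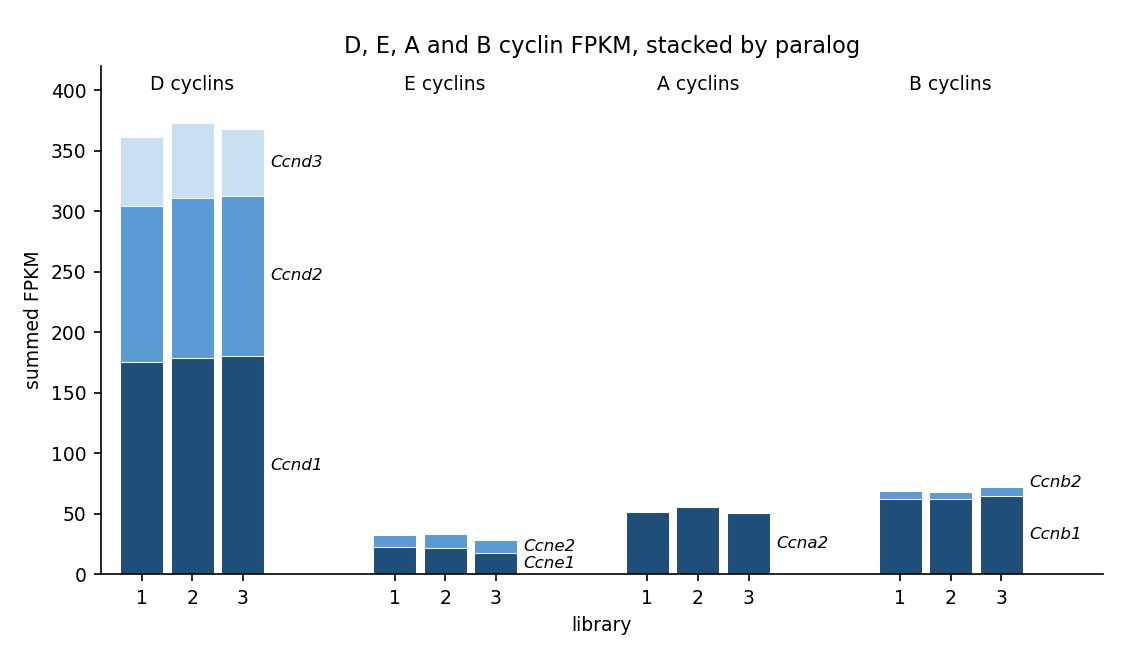
Summed FPKM of the D, E, A and B cyclins in libraries 1, 2 and 3, each bar stacked by paralog, on an axis that starts at 0. The D cyclin bars reach 361.0 to 372.7 FPKM, whereas the E cyclin bars stay between 28.4 and 33.6 FPKM, and the A and B cyclin bars consist almost wholly of Ccna2 and Ccnb1.

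The plot of summed cyclin levels sets the 4 classes side by side. The D cyclin sum was 11.8 ± 1.04 times the E cyclin sum, 7.03 ± 0.265 times the A cyclin sum and 5.28 ± 0.177 times the B cyclin sum (SD, n = 3). With the longest isoform the ratio to the B cyclins was lower, at 3.27 ± 0.106, and those to the E and A cyclins were 10.2 ± 0.888 and 4.90 ± 0.199. B cyclins totalled 69.6 ± 1.94 FPKM and A cyclins 52.3 ± 2.53 FPKM, a ratio of 1.34 ± 0.094. A cyclins in turn totalled 1.67 ± 0.098 times the E cyclins, which summed to 31.4 ± 2.69 FPKM. The class sums did not overlap between any of these classes in the 3 libraries.

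The region before the start of Cdk1, Ccnb1, Ccnb2 and Cdk2 is given here because these genes stand for the mitotic kinase, its high and its low cyclin, and the S phase kinase. Each sequence is from RefSeq on GRCm38.p6, 5′ to 3′ on the strand of the gene, and runs from 250 bases before the annotated start to 50 bases after it. Capitals mark every match to an E2F word (TTTGGCGC, TTTGCCGC, TTTCGCGC or TTTCCCGC), a word of the cell cycle homology region (CHR, TTTGAA or TTCGAA) or a CCAAT box, on either strand, so that CCAAT on the other strand reads ATTGG. The windows are chr10:69352863-69353162 for Cdk1, chr13:100786437-100786736 for Ccnb1, chr9:70421505-70421804 for Ccnb2 and chr10:128705002-128705301 for Cdk2, all on the minus strand.
Cdk1: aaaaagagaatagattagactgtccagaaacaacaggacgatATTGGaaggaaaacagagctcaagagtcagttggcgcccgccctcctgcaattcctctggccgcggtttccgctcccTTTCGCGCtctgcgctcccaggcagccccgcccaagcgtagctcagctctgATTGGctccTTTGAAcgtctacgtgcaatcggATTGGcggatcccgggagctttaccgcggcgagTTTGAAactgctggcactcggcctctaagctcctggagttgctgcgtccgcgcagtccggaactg
Ccnb1: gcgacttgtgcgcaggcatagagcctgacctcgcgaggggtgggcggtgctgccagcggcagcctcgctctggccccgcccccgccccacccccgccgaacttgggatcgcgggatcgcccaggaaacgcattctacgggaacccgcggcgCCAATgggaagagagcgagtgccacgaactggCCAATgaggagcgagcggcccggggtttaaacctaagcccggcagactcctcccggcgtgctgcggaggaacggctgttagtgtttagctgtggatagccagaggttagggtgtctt
Ccnb2: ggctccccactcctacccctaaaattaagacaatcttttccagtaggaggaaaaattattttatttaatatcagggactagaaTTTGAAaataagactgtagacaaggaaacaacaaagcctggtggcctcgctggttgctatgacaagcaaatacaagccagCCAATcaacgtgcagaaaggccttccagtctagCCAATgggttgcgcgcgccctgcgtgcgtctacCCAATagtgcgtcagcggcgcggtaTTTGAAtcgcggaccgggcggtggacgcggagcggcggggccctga
Cdk2: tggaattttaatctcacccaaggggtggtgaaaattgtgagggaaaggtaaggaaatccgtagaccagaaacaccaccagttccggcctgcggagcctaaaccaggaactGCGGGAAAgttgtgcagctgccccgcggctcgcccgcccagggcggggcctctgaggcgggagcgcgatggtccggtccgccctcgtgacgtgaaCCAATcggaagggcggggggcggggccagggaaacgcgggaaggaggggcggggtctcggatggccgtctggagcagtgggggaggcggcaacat
The Cdk1 window held an E2F word 131 bases before the start, CHR words 71 and 15 bases before it, and CCAAT boxes on the other strand 208, 80 and 48 bases before it. In the Ccnb1 window, CCAAT boxes lay 99 and 67 bases before the start, with no match to the other words. The Ccnb2 window had CCAAT boxes 87, 54 and 21 bases before the start and a CHR word 167 bases before it, with another just past the start. The Cdk2 window had an E2F word on the other strand 140 bases before the start and a CCAAT box 45 bases before it.

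Windows of this kind were matched by symbol for 32 members, with 38 windows in all because some genes have several starts. Ccnd1, Ccnd2, Rb1, Ccne2, Ccna2, Cdc25c, Wee1, E2f4, E2f5, Ccnh and Cdk5 were not matched. An E2F word was present in 23.7% of the members' windows, beside 2.26% of all 32851 windows of that length. The 8 members with such a word were Rbl1, Cdc25a, Cdk2, E2f2, E2f3, Tfdp1, E2f7 and Cdk1. Of these, 5 act at G1 to S, a group with 9 of the 32 matched members. A match in any window of a member counted, and this group held more windows per member than the rest. E2f2, E2f3, Skp2, Tfdp1 and Tfdp2 had several windows each, as did only Ccnd3 outside it. A CHR word occurred in 23.7% of the members' windows and in 19.2% of all windows, and a CCAAT box in 47.4% and 37.4%. All 4 matched G2 to M genes (Ccnb1, Ccnb2, Cdc25b and Cdk1) held a CCAAT box, and so did all 4 matched S to G2 genes (Ccna1, Ccnf, E2f7 and E2f8), of which Ccna1 was listed at 0. None of the 8 matched genes of transcription and CDK activation held an E2F word. At the share of 2.26% over all windows, most sets of 8 genes would hold none either. A match describes the letters only, and whether a factor binds there was not measured. Some windows also lie within the annotated gene rather than before it. The E2f1 window, with no E2F word, was chr2:154569377-154569676 on the minus strand, inside the gene at 154559407-154569892. The region before the annotated gene was not searched for E2f1.

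E2F factors fall into activators, repressors that work with pocket proteins, and atypical repressors that need no DP partner. Of the activators, E2f3 had 22.2, 21.8 and 22.6 FPKM, E2f1 16.3, 16.9 and 17.4 FPKM, and E2f2 3.70, 4.33 and 4.57 FPKM. E2f3 held 51.3% and E2f1 39.0% of their sum of 43.2 ± 1.2 FPKM. E2f2 was the lowest member above 0, on 138 to 169 fragments, and E2f1 was 4.04 ± 0.328 times as high (7.38 times with the longest isoform). The lead of E2f3 over E2f1, a ratio of 1.32 ± 0.036, turned narrowly with the longest isoform, under which E2f1 stood at 1.05 ± 0.028 times E2f3.

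Of the repressors, E2f4 was the highest E2F, with 76.3, 72.6 and 71.4 FPKM. It held 61.2% of the repressor sum of 120.0 ± 3.39 FPKM. E2f5, which resembles E2f4 and also binds p130, measured 11.0, 8.73 and 11.7 FPKM, and library 2 was low. E2f4 was 7.11 ± 1.12 times as high as E2f5 (SD, n = 3), or 4.20 times with the longest isoform. The atypical E2f7 had 29.0, 29.8 and 27.2 FPKM and E2f8 7.41, 7.92 and 6.83 FPKM. E2f7 exceeded E2f8 by 3.89 ± 0.111 times (2.11 with the longest isoform), and in both genes library 3 was the lowest.

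E2f6, a repressor that acts without pocket proteins (chr12:16810963-16839742, plus strand), was listed at 0 in every library. A level of 3 fragments would have been 0.114, 0.118 and 0.115 FPKM at its used length of 1822 nt. The annotation gives it 7 isoforms, and neither an exon overlapping another gene nor a 75-nt word shared with one. The next protein-coding genes on 1 side, Rock2 and Pqlc3, had 73.1 to 75.4 and 34.6 to 35.2 FPKM, while Greb1 and Ntsr2 on the other side were at 0.051 to 0.256 FPKM and at 0. Why E2f6 was listed at 0 was not tested.

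The DP partners, with which typical E2Fs bind DNA, were more abundant than the activator E2Fs taken alone. Tfdp1 had 82.1, 77.5 and 78.3 FPKM and Tfdp2 28.4, 27.9 and 28.5 FPKM, a ratio of 2.80 ± 0.075 (5.80 with the longest isoform). Together they summed to 107.5 ± 2.63 FPKM, which was 2.49 ± 0.115 times the activator E2F sum, or 1.53 ± 0.074 times with the longest isoform. The activator sum leaves out other typical E2Fs, among them E2f4 (73.4 FPKM) and E2f5 (10.5 FPKM). The DP sum was not compared with the sum of all typical E2Fs. Tfdp1 shared 11.5% of its words with other genes, among them the pseudogene Gm7390 at 1.27 ± 0.178 FPKM.

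The Cdc25 phosphatases remove the inhibitory phosphates from CDKs that the kinase Wee1 adds. Cdc25b was the highest, with 46.7, 45.8 and 42.3 FPKM, followed by Cdc25a (21.8, 22.0 and 24.1 FPKM) and Cdc25c (17.0, 17.5 and 17.2 FPKM). Library 3 had both the lowest Cdc25b and the highest Cdc25a value, yet the ranges of the 3 genes did not overlap. Cdc25b exceeded Cdc25a by 1.99 ± 0.207 times and Cdc25c by 2.61 ± 0.146 times. Wee1 measured 13.9, 11.9 and 12.8 FPKM. Skp2, which brings the CDK inhibitor p27 to the ubiquitin ligase SCF, had 17.4, 16.4 and 18.0 FPKM, and Ccnf, a cyclin that is itself a substrate receptor of SCF, 24.9, 23.4 and 22.7 FPKM.

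The CDKs of transcription and their cyclins formed the second largest sum, 372 to 380 FPKM per library over 9 genes with a median of 35.4 FPKM. Ccnt1 (93.0, 90.3 and 91.7 FPKM) and Ccnt2 (53.2, 53.1 and 53.1 FPKM) are alternative cyclins of Cdk9 in P-TEFb, the kinase that releases paused RNA polymerase II, and Cdk9 had 65.7, 66.2 and 62.7 FPKM. Ccnt1 was 1.73 ± 0.024 times as high as Ccnt2. With the longest isoform this turned to 0.895 times, and Cdk9, at 0.707 ± 0.025 of Ccnt1 as deposited, came to 0.989 of it with no common direction in the 3 libraries. Cdk8, the Mediator kinase (50.7, 49.9 and 52.6 FPKM), was 3.46 ± 0.142 times as high as its cyclin Ccnc (15.3, 13.9 and 15.2 FPKM). Cdk7, which activates other CDKs and is part of TFIIH, had 25.8, 26.1 and 27.6 FPKM and was 0.749 ± 0.044 of its cyclin Ccnh (36.8, 34.4 and 35.1 FPKM). Under the longest isoform the Cdk7 to Ccnh ratio was 0.995, again with no common direction.

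Cdk13 and Cdk12 phosphorylate elongating RNA polymerase II with cyclin K. Cdk13 had 25.9, 24.5 and 24.7 FPKM, 1.81 ± 0.080 times the level of Cdk12 (13.6, 13.9 and 13.9 FPKM). The order turned with the longest isoform, where Cdk12 was 1.25 times Cdk13, as Cdk13 has an isoform of 12548 nt against a used length of 3540 nt. Cdk14, a kinase of Wnt signalling, was among the 5 highest members with 110.3, 118.8 and 112.2 FPKM. Cdk5, best known from neurons, had 31.3, 30.5 and 30.2 FPKM. The known partners of these kinases, named after their values were seen, were Ccnk at 39.3 ± 0.886 FPKM, Ccny, which binds Cdk14, at 43.5 ± 1.56 FPKM, and Cdk5r1, which activates Cdk5, at 0.668 ± 0.194 FPKM (SD, n = 3).

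**Figure D3:**
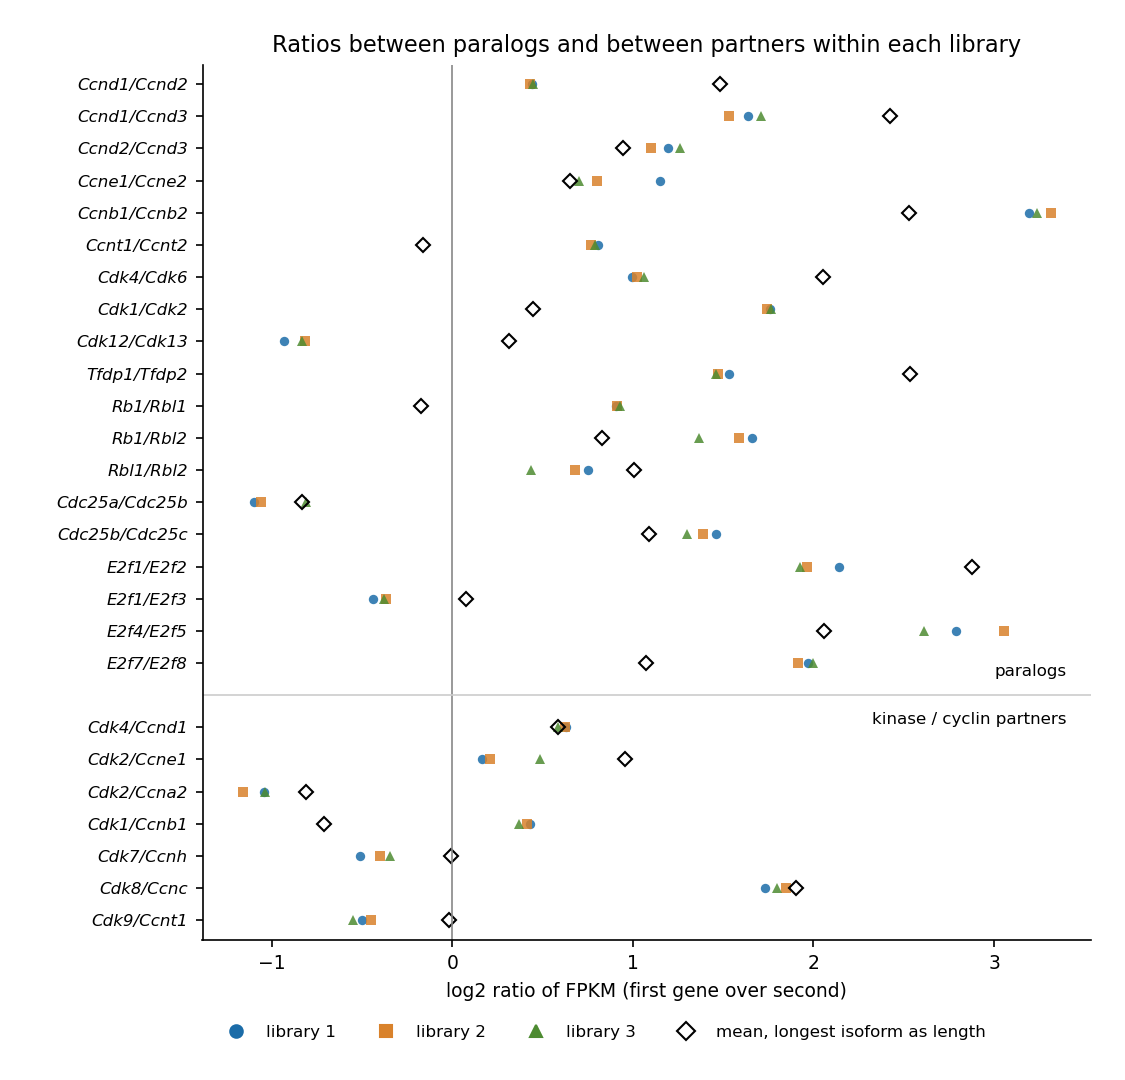
Log2 ratio of FPKM (first gene over second) for 19 paralog and 7 kinase to cyclin pairs in library 1 (circles), library 2 (squares) and library 3 (triangles), with the mean recomputed on the longest annotated isoform as open diamonds. All 26 pairs lie on 1 side of 0 in every library as deposited, whereas the diamonds of 5 pairs lie across 0, that of E2f1/E2f3 only barely, and those of Cdk7/Ccnh and Cdk9/Ccnt1 sit almost on it.

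Of 27 pairs fixed for comparison, 20 between paralogs and 7 between partners, 26 had fragments for both genes. In the plot of ratios, all 26 kept 1 direction in all 3 libraries, and 20 had a mean ratio of over 1.5-fold. Flipping the signs of the log2 ratios in every combination, an exact permutation test (two-sided), returned p = 0.25 for each pair, also after Benjamini-Hochberg adjustment over the 26. With 3 libraries p cannot be smaller, so the size of a ratio beside its SD is what these data give. With the longest isoform the direction was shared by all libraries in 24 pairs. In 5 of these it was opposite to that in deposited FPKM, namely Ccnt1/Ccnt2, Cdk12/Cdk13, Rb1/Rbl1, E2f1/E2f3 and Cdk1/Ccnb1.

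For most members, variation between libraries stayed under a limit set by counting error. The median member nevertheless varied more, relative to counting error, than the median gene examined. The coefficient of variation ran from 0.11% (Ccnt2) to 14.8% (E2f5), with a median of 3.11%. The median ratio of that value to the one expected from fragment counts alone was 1.01 over the members and 0.883 over all genes examined. With so few libraries, counting error alone would leave this median short of equality. Members above 0 had at least 133 fragments in each library, whereas the genes examined needed only 10 over all libraries. No median at matched depth was computed, so the difference between the 2 medians may reflect depth, which was not tested. A chi-square statistic of the fragments against the library totals (2 degrees of freedom, limit 5.99, which counting error alone exceeds in 5% of genes) was over the limit for 7 of 41 members (17.1%). The same held for 8.83% of all 16441 genes with at least 10 fragments, for 8.99% of the 12478 protein-coding ones and for 11.5% of the 7272 genes with at least 1000 fragments.

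The 7 members were E2f5, Cdk14, Rbl2, Cdk6, Wee1, Ccne1 and Ccnd3, and they did not share a direction. E2f5 had 281, 215 and 295 fragments in libraries 1 to 3 (chi-square 11.5), with library 2 low. Rbl2 had 344, 369 and 430 fragments (chi-square 10.4), with library 3 high. Ccne1 had 278, 260 and 219 fragments (chi-square 7.31), with library 3 low. Ccnd3 and Cdk14 were highest in library 2, Cdk6 was lowest in library 3, and Wee1 was highest in library 1. Each library held the highest value of 13 to 15 members and the lowest of 13 or 14, so no library stood apart over the set. Without library 2 the number over the limit was 4 (beside 8.38% of the genes tested), namely Cdk6, Rbl2, Ccne1 and Cdc25b.

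**Figure D4:**
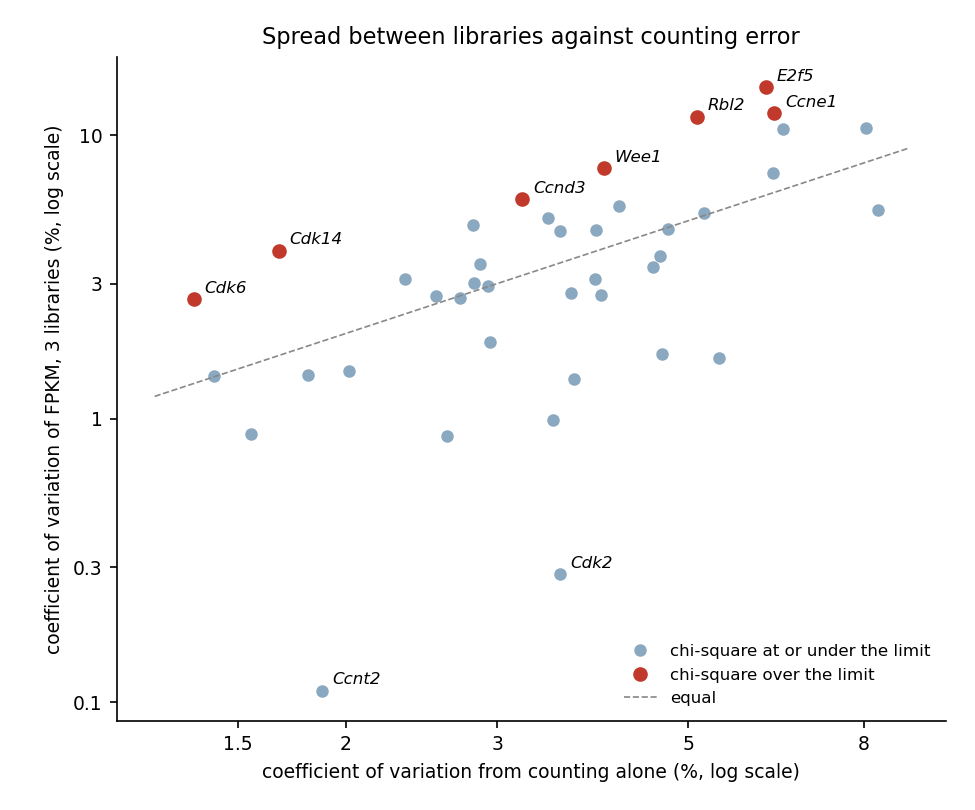
Coefficient of variation of FPKM over the 3 libraries against that expected from counting fragments, both in percent on log axes, for the 41 members above 0, with a dashed line where they are equal. The 7 members over the chi-square limit, among them E2f5, Rbl2 and Ccne1, lie above the line, and Ccnt2 and Cdk2 lie farthest below it.

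As the plot of spread against counting error shows, the low members E2f2 and Ccnb2 were under the chi-square limit, with coefficients of variation of 10.7% and 5.45% beside counting values of 8.05% and 8.31%. At the other end, Cdk6 differed by only 2.64% between libraries but was over the limit, since 5480 to 5797 fragments put its counting value at 1.33%.

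Some member fragments cannot be assigned to 1 gene with certainty. Exons of another annotated gene overlapped those of 21 members, by over 10% in 9 of them, and whether the counting used strand is not given in the sources used here. The largest overlap was 23.4% of the Ccnd1 exons, with LTO1 on the opposite strand, which stood at 12.8 FPKM. For Cdk4 it was 19.7%, with Tspan31 on the opposite strand at 96.3 FPKM. Relative to the member, the overlapping gene was higher for Ccne2, where Ints8 covered 17.4% of the exons at 14.3 FPKM beside 11.0 FPKM for Ccne2. For Ccna2, Exosc9 covered 12.5% of the exons at 39.3 FPKM beside 52.3 FPKM. The pocket proteins were affected too. Aktip covered 9.17% of the Rbl2 exons at 17.6 FPKM beside 13.1 FPKM for Rbl2. Rcbtb2 covered 8.11% of the Rb1 exons at 21.4 FPKM beside 37.9 FPKM for Rb1. Reads from such a stretch cannot be told apart without strand. Of the 75-nt words of each member, 21 members shared none with another gene, and 9 shared over 10%, up to 20.6% in Ccnd1.

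The wider cell cycle machinery was described by lists of genes outside the set. The list of MuvB and DREAM partners holds subunits of the MuvB core and the factors Mybl2 and Foxm1, which bind that core in place of p107 or p130 later in the cycle. All 7 had at least 1 FPKM, from Lin9 (9.66 FPKM) to Rbbp4 (107.9 FPKM). All 6 genes of the ubiquitin ligases SCF and APC did so too, from the F-box protein Btrc (10.6 FPKM) to the scaffold Cul1 (133.6 FPKM). Of 12 other cyclins, 10 did, led by Ccni at 156.4 FPKM, with Ccnjl and Ccnb3 listed at 0. Of 8 other CDKs, 7 did, from Cdk16 (54.4 FPKM) down, with Cdk15 at 0.187 FPKM. CDK cofactors reached that level in 5 of 8 genes, led by Cks1b (112.0 FPKM), which helps SCF recognise p27, with Cables1 and Cdk5r2 listed at 0.

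CDK inhibitors, which oppose the kinases above, reached 1 FPKM in 5 of 8 genes. Cdkn1a (p21) was the highest at 142.8 ± 1.22 FPKM (SD, n = 3), between Ccnd1 and Cdk6 in level. Cdkn1c, Cdkn2a and Cdkn2b, of which the last 2 encode inhibitors of Cdk4 and Cdk6, were listed at 0 in all libraries. These counts describe the lists, beside 49.2% of protein-coding genes at that level.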

How the data were processed

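RNA of NIH3T3 cells was measured in 3 libraries of 1 condition. Per the study's methods and the submitters' processing notes, UMIs were read with UMI-tools 1.0.0, the reads were mapped with HISAT2 2.0.4, copies with the same location and UMI were removed, and reads were counted per gene with HTSeq 0.6.1. The notes also list DESeq 1.10.1, with no role. The authors deposited FPKM values, which divide the count of a gene by its length and the library total. Genome build, annotation, overlap mode and strand setting are not given in the sources used here. Both tables hold identical values, and 0 columns of values were left unused.

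Library totals (13959723 to 14423209 fragments) and fragments per gene were recovered from the FPKM and the lengths of GENCODE M21 (GRCm38). The length of a gene was the mean over its annotated isoforms, rounded to a whole base. That annotation holds 55480 of the 55573 gene IDs. Fragments were whole, within 0.001, for 99.1% of the 26193 genes with any fragment. A floor of 3 fragments was used for genes at 0, and it covers counting error only. Since FPKM is a normalized unit, count models were not used. Means, SDs, within-library ratios, exact sign-flip permutation tests, class shares and chi-square statistics over genes with at least 10 fragments were computed with Python 3.11.15, numpy 2.4.6, pandas 2.3.3 and scipy 1.17.1, and figures were drawn with matplotlib 3.10.9. The scripts were tested on simulated data. Words of 75 nt were compared between annotated transcripts on both strands. Promoter windows came from RefSeq.

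All 43 members are named, with the highest and lowest gene of each pathway list. The members, pairs and lists were chosen with earlier results of these data known. Alternatives were leaving out each library, rescaling to 1000000 per library, the median over libraries, other limits, pseudocounts, the longest isoform, and median-of-ratios scaling. Ratios between class sums under the longest isoform, and without each library, were added after seeing the data. The value of 1 marker gene is not reported here. Imaging data were not analysed here.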

Additional observations from a re-analysis of the deposited data

How the results depend on the processing

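No paired analysis was possible because the libraries belong to a single condition. Of 479 recomputed values, 415 stayed within the spread between libraries or kept their direction, 59 moved and 5 reversed. All 5 reversals, among 26 pairs, came with the longest annotated isoform as gene length. On the log2 scale, Ccnt1 to Ccnt2 went from 0.79 to -0.16, Cdk12 to Cdk13 from -0.86 to 0.32 and Rb1 to Rbl1 from 0.92 to -0.17. E2f1 to E2f3 went from -0.39 to 0.075 and Cdk1 to Ccnb1 from 0.41 to -0.71. With that length, Cdk7 to Ccnh and Cdk9 to Ccnt1 kept the sign of their mean, at -0.0096 and -0.016, but had no common direction over the libraries. That length also moved 16 values, which are shares within classes and the 6 ratios between class sums (added after seeing the data, none of them reversed), and left the same leading gene in 8 of 11 classes, those that changed being the activator E2Fs, the pocket proteins and the pair Ccnt1 and Ccnt2. Which length suits these cells was not tested. Rescaling each library to 1000000 raised the median member from 26.5 to 38.4 and moved 42 values, because the deposited FPKM sum to less than that, and it changed no ratio within a library. Leaving out 1 library at a time gave medians of 25.9 to 26.8 FPKM, 41 members of at least 1 FPKM and 26 pairs with a shared direction throughout. The number of members over the chi-square limit ranged from 4 (without replicate 2) to 6, beside 7 in all libraries, and the cause was not tested. Limits of 0.5 and 5 FPKM gave 41 and 40 members. Depth limits Ccnb2, E2f2 and Ccne2 most, which rest on the fewest fragments, and the 3 libraries cannot take a permutation p below 0.25.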
